A study of Caenorhabditis elegans with 20 samples.

Results

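*dod-3*, *dod-6* and *tts-1* are 3 transcripts of *Caenorhabditis elegans* known as markers of long-lived *daf-2* mutants, and they were described here as 3 of 17118 genes with a probe set of their own on the array. They were chosen by name, with earlier results of these same arrays known, in which loss of *daf-16* lowered them. The differences between genotypes with and without *daf-16* are therefore given below as descriptions with no test. RNA from whole adults was measured on 20 Affymetrix arrays in 4 genotypes of 5 arrays, namely *daf-16*(mgdf50); *daf-2*(e1370), *daf-16*(mgdf50); *daf-2*(m577), *daf-2*(e1370) and *daf-2*(m577). All 4 also carry *glp-4*(bn2), left out of the names here, and all carry a *daf-2* mutation, so no animal with normal *daf-2* is among the groups compared. Larvae were kept at 15 °C and moved to 25 °C around the L4 stage, and RNA was taken from sterile adults aged 1 day, with 8 plates pooled in each biological replicate. The labels do not say whether replicates were grown at separate times, and the p-values measure only the spread between these arrays. Each strain stands for its genotype, so anything else that differs between the strains cannot be told apart from the alleles.

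The insulin/IGF-1 receptor DAF-2 signals through a kinase cascade that keeps the FOXO transcription factor DAF-16 out of the nucleus. When the receptor is weakened, DAF-16 enters the nucleus, many genes are switched on or off, and the animal lives longer, which needs *daf-16*. The allele e1370 alters the kinase domain of the receptor and is known for more side effects on growth and movement than alleles of the class to which m577 belongs. The name *dod* stands for "downstream of DAF-16", and was given to genes found in array screens of *daf-2* and *daf-16* animals. *tts-1* is transcribed into a long non-coding RNA that is abundant in dauer larvae and in *daf-2* mutants and associates with ribosomes, and its loss shortens the life of *daf-2* mutants.

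Each of the 3 genes was measured by 1 probe set. *dod-3* (C24B9.9, chromosome V, protein coding) was read by 173335_s_at, *dod-6* (T20G5.7, chromosome III, protein coding) by 172218_x_at and *tts-1* (F09E10.11, chromosome X, non-coding RNA) by 174073_at. In the naming of these arrays, the ending _s_at marks probes shared by several transcripts and _x_at marks probes that may also bind unrelated ones, and which other transcripts add to the *dod-3* and *dod-6* signals was not tested. Values are on the log2 scale of the deposited table, so a difference of 1 is a 2-fold change of signal. The 15 control probe sets of *Bacillus* genes, absent from the worm genome, lay between 4.21 and 6.29 and served as the background range. All 60 values of the 3 genes lay above it, from 6.90 to 13.31. Levels of different probe sets are not compared with each other below. Precision is limited by how few arrays there were.

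Array medians ran from 6.41 to 6.57. Of 4 *daf-16* probe sets, 1 passed the threshold in e1370, at 5.99 in *daf-16*(mgdf50); *daf-2*(e1370) against 6.97 in *daf-2*(e1370) (limma adjusted p = 0.0435), and in m577 none of the 4 passed (smallest limma adjusted p = 0.0917). Which of them lie in the deleted part of *daf-16* was not stated, so those outside it check nothing. The 4 *daf-2* probe sets had genotype means from 4.75 to 5.48, inside the background range. *glp-4*, which encodes a valyl-tRNA synthetase, had means without *daf-16* of 7.94 in e1370 and 7.91 in m577. With *daf-16* they were 6.96 and 6.92, and neither difference passed the threshold (limma adjusted p = 0.242 and 0.263). Markers of intestine (19 of 19 measured), hypodermis (14 of 15), body muscle (14 of 14) and neurons (16 of 16) were detected in each genotype, with at least 15, 13, 12 and 11 of them above the background range. Although the animals are described as sterile, all 33 oocyte and germ cell genes had means above background in every genotype, as did 27 to 28 of the 29 sperm genes measured of 40 listed. The sperm list mean was lowest at 7.93 on the *daf-16*(mgdf50); *daf-2*(e1370) array numbered 5, at 7.85 on the *daf-2*(m577) array numbered 3 and at 8.73 on the *daf-2*(e1370) array numbered 4. Results without these 3 arrays are given below for some of the differences. In whole animals, fewer cells of a type and less RNA per cell cannot be told apart.

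*dod-3* had the widest allele difference of the 3 genes once *daf-16* was lost. Its level was 7.41, 9.27, 7.61, 7.48 and 7.36 on the arrays of *daf-16*(mgdf50); *daf-2*(e1370), against 9.60, 10.28, 9.77, 10.04 and 9.35 on those of *daf-16*(mgdf50); *daf-2*(m577). No e1370 value reached the m577 range, but array 2 of the e1370 strain came within 0.08 of the lowest m577 array, while its other 4 lay between 7.36 and 7.61. With *daf-16* present the level was 12.47, 12.29, 11.63, 11.10 and 10.89 in *daf-2*(e1370), against 11.21, 11.01, 11.21, 10.55 and 10.64 in *daf-2*(m577). These groups overlapped, the 3 highest values being in e1370. The order of the genotype means was *daf-16*(mgdf50); *daf-2*(e1370) (7.83 ± 0.81), *daf-16*(mgdf50); *daf-2*(m577) (9.81 ± 0.36), *daf-2*(m577) (10.92 ± 0.32) and *daf-2*(e1370) (11.68 ± 0.70; SD, n = 5 each). Of the neighbours in this order, only *daf-2*(m577) and *daf-2*(e1370) had arrays that overlapped.

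*dod-6* had the largest difference with loss of *daf-16* of the 3 genes in both alleles, and its arrays spread most in *daf-16*(mgdf50); *daf-2*(m577). Its level was 8.93, 8.51, 8.36, 8.27 and 6.90 on the *daf-16*(mgdf50); *daf-2*(e1370) arrays, against 7.36, 9.58, 9.85, 10.15 and 7.80 on the *daf-16*(mgdf50); *daf-2*(m577) arrays. The m577 arrays fell apart into 3 arrays above every e1370 array and 2 arrays inside the e1370 range, so the genotypes overlapped. With *daf-16* present it was 13.31, 13.15, 13.16, 12.85 and 12.27 in *daf-2*(e1370), against 12.34, 12.27, 12.59, 12.18 and 11.78 in *daf-2*(m577). Again the groups overlapped, on replicate 5 of *daf-2*(e1370). The genotype means followed the same order as for *dod-3*: 8.19 ± 0.77 in *daf-16*(mgdf50); *daf-2*(e1370), 8.95 ± 1.27 in *daf-16*(mgdf50); *daf-2*(m577), 12.23 ± 0.30 in *daf-2*(m577) and 12.95 ± 0.41 in *daf-2*(e1370) (SD, n = 5 each). Neighbours within the pair without *daf-16* and within the pair with it overlapped, and the 2 pairs lay 1.63 apart.

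*tts-1*, the non-coding RNA, kept the largest share of its signal in e1370 animals that lacked *daf-16*. Its level was 9.56, 10.85, 9.62, 9.74 and 10.29 on the *daf-16*(mgdf50); *daf-2*(e1370) arrays, against 10.52, 10.21, 11.44, 11.46 and 9.89 on the *daf-16*(mgdf50); *daf-2*(m577) arrays. These groups overlapped, and the 2 highest values were replicates 3 and 4 of the m577 strain, which also had the 2 highest *dod-6* values of that strain. With *daf-16* present it was 12.55, 12.68, 12.85, 12.45 and 12.33 in *daf-2*(e1370), against 12.22, 12.22, 12.27, 12.004 and 11.81 in *daf-2*(m577). Here every e1370 array was above every m577 array, by 0.06 at the closest. The means were 10.01 ± 0.55, 10.70 ± 0.72, 12.10 ± 0.20 and 12.57 ± 0.20 (SD, n = 5 each) in *daf-16*(mgdf50); *daf-2*(e1370), *daf-16*(mgdf50); *daf-2*(m577), *daf-2*(m577) and *daf-2*(e1370), the same order of genotypes again.

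**Figure D1:**
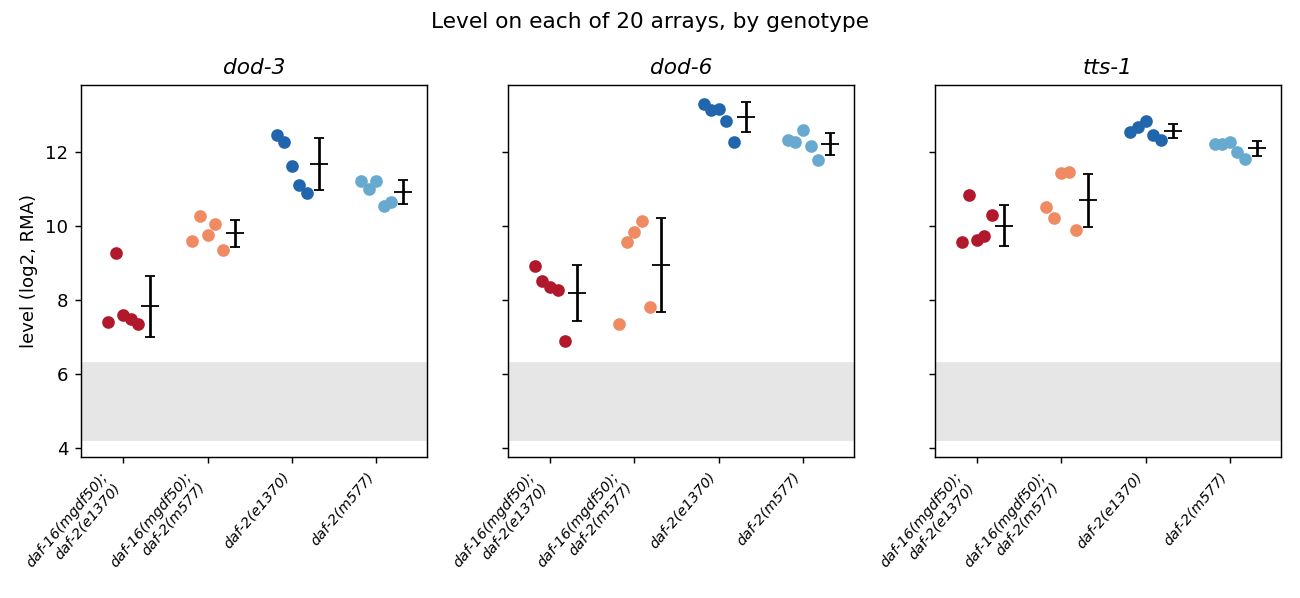
Level of dod-3, dod-6 and tts-1 (log2, vertical axis) on each array, by genotype (horizontal axis), with the mean and SD of 5 arrays beside the points and the range of the Bacillus controls shaded. All points lie above the shaded range, from 6.90 to 13.31, and for dod-3 1 daf-16(mgdf50); daf-2(e1370) array stands at 9.27 above the other 4 of its genotype.

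Loss of *daf-16* went with lower levels of all 3 genes in both alleles. In *daf-16*(mgdf50); *daf-2*(e1370) minus *daf-2*(e1370) the difference was -3.85 ± 0.36 for *dod-3*, -4.76 ± 0.47 for *dod-6* and -2.56 ± 0.29 for *tts-1* (SE, n = 5 per genotype). In *daf-16*(mgdf50); *daf-2*(m577) minus *daf-2*(m577) it was -1.12 ± 0.36, -3.28 ± 0.47 and -1.40 ± 0.29 for the same genes in the same order. All 3 genes had arrays that did not overlap in either allele, where 2.01% of 22548 probe sets were lower without overlap in e1370 and 3.38% in m577, and nothing is read from this since the genes were chosen on these differences. Expressed as a share of the linear signal with *daf-16* present, the residual signal of *dod-3* was 6.93% in e1370 (95% confidence interval 4.13 to 11.6) and 46.2% in m577 (27.5 to 77.4). The log2 difference of -1.12 behind the m577 share was -0.46 with the oocyte and sperm gene levels as covariates and -1.69 with arrays blocked by the number in their second name. For *dod-6* it was 3.70% in e1370 (1.86 to 7.37) and 10.3% in m577 (5.16 to 20.4). For *tts-1* it was 16.9% in e1370 (11.1 to 25.7) and 37.9% in m577 (24.9 to 57.5). The m577 genotypes also differed in RNA integrity, measured as the 3' end less the 5' end signal of control transcripts. It lay between 1.72 and 2.32 without *daf-16* and between 1.19 and 1.61 with it. In e1370 the ranges overlapped. With this covariate the m577 differences were -1.34 ± 0.55 for *dod-3*, -2.56 ± 0.70 for *dod-6* and -1.41 ± 0.45 for *tts-1* (SE). The part of RNA integrity was not tested further. Intestine markers moved with *daf-16* in e1370, where 8 of 19 were higher and 1 was lower without it, against 1.98% and 2.40% of all probe sets. Their mean level ranged from 9.05 to 10.24 in *daf-16*(mgdf50); *daf-2*(e1370) against 8.33 to 8.97 in *daf-2*(e1370). In m577, 3 of 19 were higher and 1 was lower, against 0.594% and 1.20% of all probe sets, and the mean level ranged from 9.59 to 10.45 without *daf-16*, against 9.03 to 10.01 with it. The part of these markers in the differences above was not tested.

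Residual levels without *daf-16* were then compared between the alleles, a comparison that was also named with earlier results known. The p-values, rank and shares below therefore describe these arrays and are no independent evidence. All 3 genes were lower in *daf-16*(mgdf50); *daf-2*(e1370) than in *daf-16*(mgdf50); *daf-2*(m577), and none passed the threshold, a Benjamini-Hochberg adjusted p under 0.05 over all 22548 probe sets in limma, a linear model with moderated variances. The difference for *dod-3* was -1.98 ± 0.36 (SE), or 25.3% of the m577 level (95% confidence interval 15.1 to 42.4, limma adjusted p = 0.205), and its unadjusted p was the 3rd smallest of all probe sets. For *dod-6* it was -0.76 ± 0.47, or 59.3% of the m577 level (29.8 to 118, limma adjusted p = 1). For *tts-1* it was -0.69 ± 0.29, or 61.9% of the m577 level (40.7 to 94.1, limma adjusted p = 1). In this comparison 1 probe set, or 0.00443%, passed the threshold. It is annotated to the catalase genes *ctl-1* and *ctl-3*, named here after the values were seen, and was at 9.43 in e1370 and 6.92 in m577. At an unadjusted p under 0.05, 2 of the 3 genes passed (*dod-3* and *tts-1*), against 3.44% of all probe sets. *dod-3* was among the 61 probe sets, 0.271% of all, with every e1370 array below every m577 array. Leaving out array 2 of the e1370 strain, the *dod-3* difference was -2.34 ± 0.28 and passed (limma adjusted p = 0.00521). Leaving out array 5 of the e1370 strain the *dod-6* difference was -0.43, as it was without the 3 arrays of low sperm gene level. Leaving out array 1 of the m577 strain it was -1.15, and none of these passed.

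RNA integrity moved with this comparison, while germ line gene levels overlapped between the 2 genotypes, with sperm genes lower on average in the e1370 strain. The integrity measure, the signal at the 3' end less that at the 5' end of control transcripts, lay between 1.29 and 1.55 in the e1370 strain without *daf-16* and between 1.72 and 2.32 in the m577 strain without *daf-16*, with no overlap. Its part in the result was not tested beyond the covariate fit given next. With this measure as a covariate the differences were -1.82 ± 0.48 for *dod-3*, -1.29 ± 0.60 for *dod-6* and -0.69 ± 0.39 for *tts-1*, none past the threshold (limma adjusted p = 0.975, 0.975 and 0.993). The mean level of the 33 oocyte and germ cell genes ranged from 8.32 to 11.23 in the e1370 strain and from 9.30 to 10.27 in the m577 strain, and that of the 29 sperm genes from 7.93 to 11.56 and from 11.23 to 11.59. No gene of either list passed the threshold between these 2 genotypes, but only 1 of all 22548 probe sets did, so this does not show equal levels. The median difference, e1370 minus m577, was -1.08 for the sperm genes and 0.15 for the oocyte and germ cell genes. The e1370 array with the high *dod-3* value had the lowest oocyte gene level of its genotype (8.32) and the highest *tts-1* level (10.85). In *daf-2*(e1370) the *dod-3* values of 12.47, 12.29, 11.63, 11.10 and 10.89 stood beside oocyte gene levels of 8.35, 8.86, 9.86, 10.88 and 10.67, whereas in *daf-2*(m577) the 2 highest *dod-3* values, both 11.21, stood beside the lowest and the highest oocyte gene level, 8.24 and 10.99. With both germ line lists as covariates the *dod-3* difference without *daf-16* was -2.20 ± 0.27 and passed (limma adjusted p = 0.00972), and those of *dod-6* (-0.76) and *tts-1* (-0.83) did not.

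**Figure D2:**
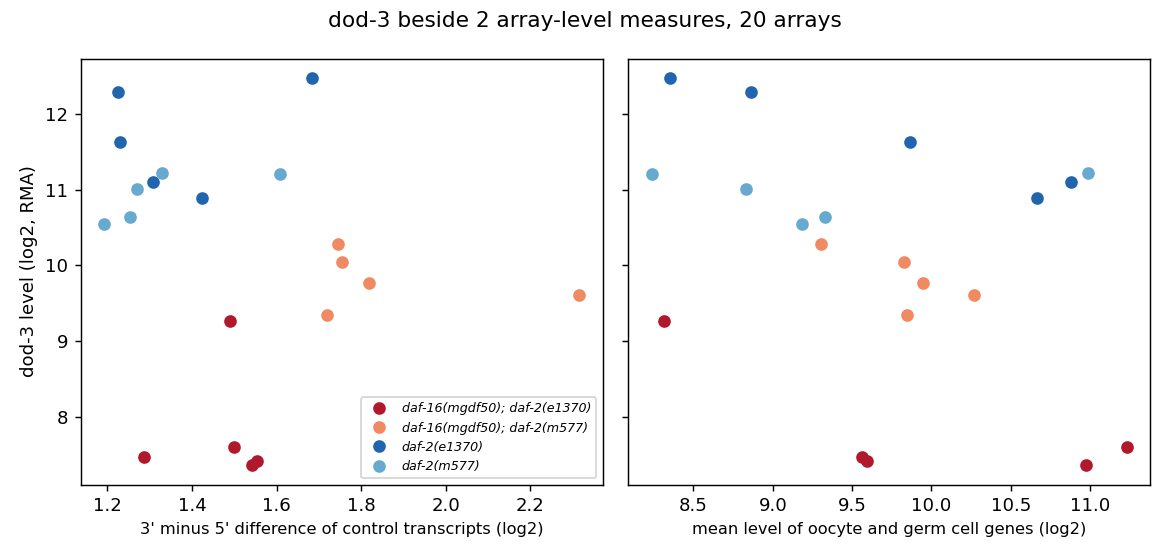
dod-3 level (log2, vertical axis) against the 3' end less the 5' end signal of control transcripts (left, log2) and the mean level of 33 oocyte and germ cell genes (right, log2), with 1 point for each of 20 arrays, coloured by genotype. The daf-16(mgdf50); daf-2(e1370) arrays have values on the left axis of 1.29 to 1.55 and those of daf-16(mgdf50); daf-2(m577) of 1.72 to 2.32.

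With *daf-16* present the alleles stood the other way round. All 3 genes were higher in *daf-2*(e1370) than in *daf-2*(m577), by 0.75 ± 0.36 for *dod-3*, 0.72 ± 0.47 for *dod-6* and 0.47 ± 0.29 for *tts-1* (SE), and none passed the threshold (limma adjusted p = 0.332, 0.508 and 0.474), which 1.32% of all probe sets did. At an unadjusted p under 0.05, *dod-3* alone passed, against 14.7% of all probe sets. The 95% confidence intervals of these differences ran from 0.01 to 1.5 for *dod-3*, from -0.28 to 1.71 for *dod-6* and from -0.14 to 1.07 for *tts-1*. The arrays of *tts-1* did not overlap, as for 1.61% of all probe sets that were higher in e1370. With both germ line lists as covariates the *dod-3* difference was 1.02 ± 0.26 (limma adjusted p = 0.0268). With arrays blocked by the number in their second name the differences were 0.23 for *dod-3*, 0.24 for *dod-6* and 0.24 for *tts-1* (limma adjusted p = 0.679, 0.837 and 0.773). Intestine markers moved with this comparison: 4 of 19 were lower in e1370 and none higher, against 0.59% and 0.727% of all probe sets, with a median of -1.14. Their mean level ranged from 8.33 to 8.97 in *daf-2*(e1370) and from 9.03 to 10.01 in *daf-2*(m577), with no overlap, and their part in the result was not tested.

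The difference between alleles in the *daf-16* difference combines these opposite signs. It is built from the *daf-16* differences on which the genes were chosen, so it is given as a description with no test. It was -2.74 ± 0.50 for *dod-3* (SE, 95% confidence interval -3.79 to -1.68), so the share left was 6.66 times smaller in e1370 than in m577. For *dod-6* it was -1.47 ± 0.67 (-2.88 to -0.07) and for *tts-1* it was -1.16 ± 0.41 (-2.02 to -0.31). The *dod-3* value ranged from -3.10 without array 2 of the e1370 strain that lacks *daf-16* to -2.54 without array 1 of *daf-2*(e1370), over 20 fits that each left out 1 array. With the RNA integrity covariate it was -2.56 ± 0.62, and without the 3 arrays of low sperm gene level it was -2.84 ± 0.56. Whether *dod-3* differed between alleles more than *dod-6* or *tts-1* did was not tested.

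**Figure D3:**
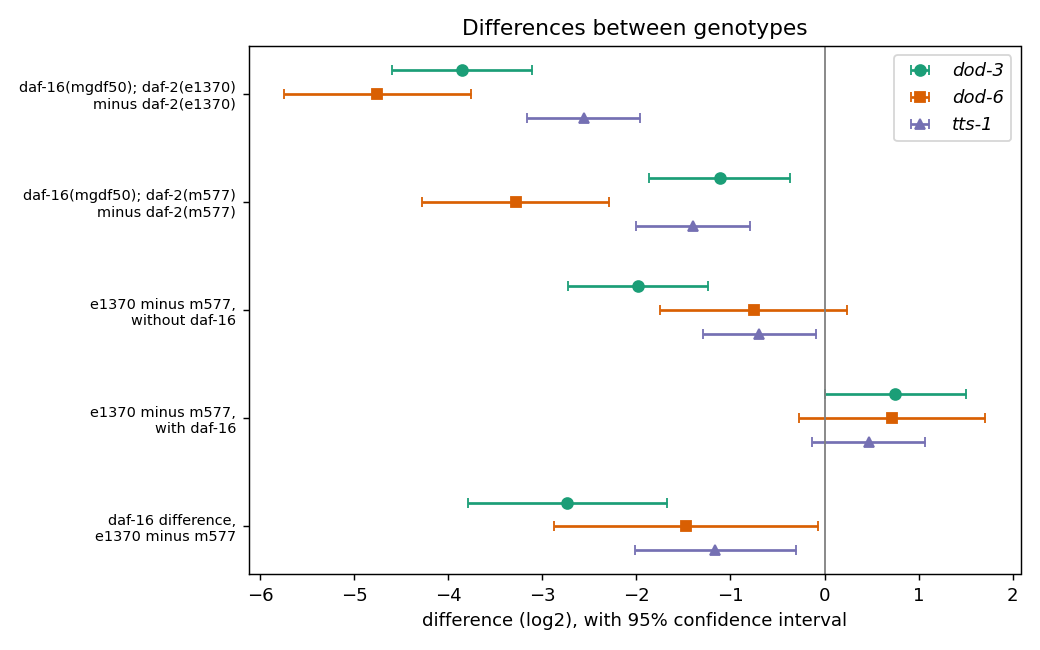
Differences between genotypes (log2, horizontal axis) for dod-3, dod-6 and tts-1, with 95% confidence intervals from the fit to 20 arrays. All 3 genes lie below 0 in both daf-16 differences and without daf-16 between alleles, and above 0 between alleles with daf-16 present, where the dod-6 and tts-1 intervals cross 0, as the dod-6 interval does without daf-16.

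The 7 other *dod* genes with a probe set of their own held none that passed the threshold as lower with loss of *daf-16*, in either allele. They too were named from array screens of *daf-2* and *daf-16* animals, and were listed with earlier results of these arrays known. Their direction and the p-values below, those between alleles included, are therefore descriptions. No contrast with *dod-3* and *dod-6* is read from them. With *daf-16* lost, 5 of the 7 rose and none fell in e1370 (median 2.51), against 1.98% of all probe sets that rose, with a median of 0.00 over all probe sets. *dod-24* rose by 5.27 ± 0.34, *dod-22* by 3.61 ± 0.30, *dod-23* by 3.34 ± 0.23 and *dod-17* by 2.51 ± 0.36 (SE, limma adjusted p = 0.000189 or less). In m577 the same comparison had 4 of the 7 higher and none lower (median 1.54), against 0.594% of all probe sets, with *dod-22* up by 2.83 ± 0.30, *dod-24* by 2.16 ± 0.34, *dod-17* by 2.13 ± 0.36 and *dod-23* by 1.54 ± 0.23 (limma adjusted p = 0.00233 or less). *dod-18* and *dod-20* passed in neither allele. Without *daf-16*, none of the 7 passed between alleles (median -0.02), and their differences ran from -0.64 for *dod-23* to 0.77 for *dod-18*. In the test of the difference between alleles, *dod-24* (3.12 ± 0.49, limma adjusted p = 0.00636) and *dod-23* (1.80 ± 0.32, adjusted p = 0.023) passed, with 0.0798% of all probe sets passing in that direction.

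Among 26 measured genes of 31 reported elsewhere as raised through *daf-16*, a list that may draw on these arrays and is not independent evidence of direction, loss of *daf-16* lowered 13 and raised 1 in e1370 (median -1.33), against 2.40% of all probe sets that were lower. In m577 it lowered 9 and raised none (median -0.77, against 1.20% of all probe sets and a median of -0.03). The differences of *ftn-1*, which encodes a ferritin, were -5.47 in e1370 and -4.92 in m577, and those of *sod-3*, a mitochondrial superoxide dismutase, -4.75 and -3.56. *hsp-12.3*, a small heat shock protein gene, had -4.49 and -2.72, and *mtl-1*, a metallothionein gene, -4.09 and -2.82. *nnt-1*, a transhydrogenase gene, had -2.95 and -3.91, and the cytochrome P450 gene *cyp-35B1* -3.44 and -3.02, all past the threshold. The exception was *fat-7*, a fatty acid desaturase, which rose by 1.88 in e1370 and differed by -0.03 in m577 (limma adjusted p = 0.963). Of the 26, *fat-7* alone passed in the difference between alleles (1.91 ± 0.30 SE, limma adjusted p = 0.00671). In that direction 0.0798% of all probe sets passed, and the value is a description too. With *daf-16* present 3 of the 26 were higher in e1370 (*hsp-12.6* by 2.56, *hsp-12.3* by 1.67 and *sod-3* by 1.29) and *nnt-1* was lower (-1.07), against the 0.727% and 0.59% of all probe sets given above. None of the 26 passed between alleles without *daf-16* (median -0.13), where 0.00443% of all probe sets passed. Their differences there ran from -1.06 ± 0.32 for *spp-1* to 1.43 ± 0.51 for *hsp-16.2* (SE). That of *fat-7* was 1.26 ± 0.21 (limma adjusted p = 0.156). The allele difference of *sod-3* without *daf-16* was 0.10 ± 0.25 (limma adjusted p = 1).

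**Figure D4:**
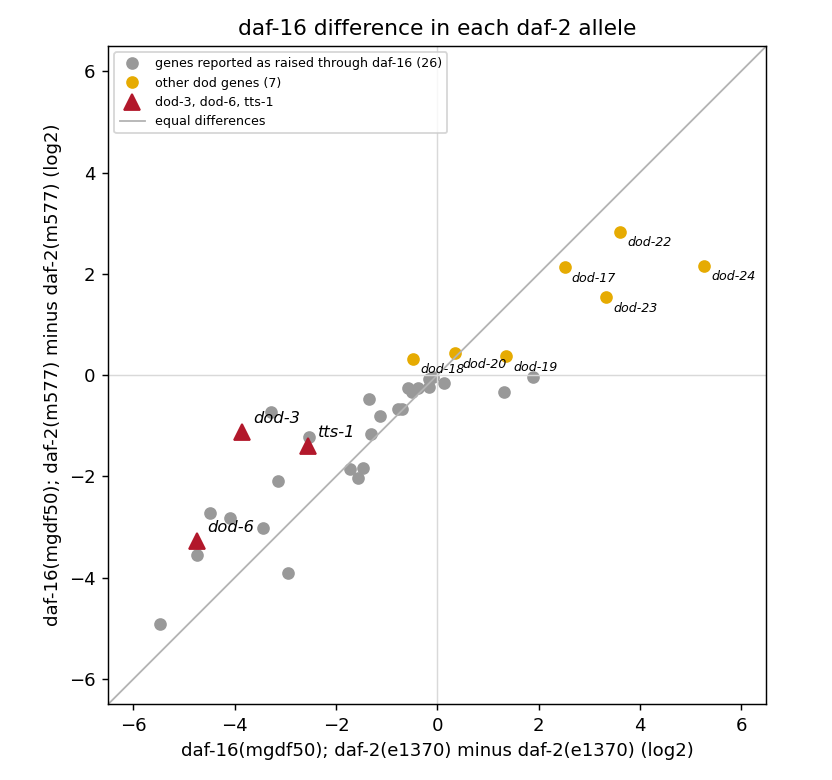
Difference with loss of daf-16 in m577 (log2, vertical axis) against that in e1370 (log2, horizontal axis) for dod-3, dod-6 and tts-1 (triangles), 7 other dod genes and 26 genes reported as raised through daf-16, with a line of equal differences. dod-3 lies above the line at -3.85 in e1370 and -1.12 in m577, and dod-24 and dod-23 lie below it among the genes that rose.

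Genes with the most similar pattern were taken as those with the smallest root mean square (RMS) difference over the 20 arrays, after each probe set was centred on its own mean, among 17118 genes. For *dod-3* the closest was *tts-1* (0.71, log2), followed by *msa-1* (0.76), *D1086.1* (0.77), *stdh-1*, named as a steroid dehydrogenase homologue (0.77), and *ttr-5*, of the transthyretin-like family (0.81). The RMS deviation of *dod-3* about its own mean was 1.54, and the allele differences of the other 4 without *daf-16* ran from -0.37 for *ttr-5* to -0.13 for *D1086.1*, none past the threshold. *msa-1* was at 10.30 in the e1370 strain without *daf-16* and at 10.61 in the m577 strain, and *stdh-1* at 9.71 and 9.85. For *tts-1* the closest were *F09F7.6* (0.41), *msa-1* (0.45), *E04F6.9* (0.45), *ttr-5* (0.46) and the cytochrome P450 gene *cyp-34A9* (0.47), against its own deviation of 1.12. All of these had the same direction between alleles without *daf-16* as *tts-1*, and none passed the threshold. The differences were -0.76 ± 0.46 for *F09F7.6* and -0.76 ± 0.38 for *cyp-34A9* (SE, limma adjusted p = 1). Those of *ttr-5*, *msa-1* and *E04F6.9* were -0.37, -0.31 and -0.13. *dod-3* ranked 81st in likeness to *tts-1*, and *dod-6* ranked 139th in likeness to *dod-3*. In likeness to *tts-1*, *dod-6* ranked 10867th, with an RMS difference of 1.21 that was above the deviation of *tts-1* about its own mean. In likeness to *dod-6*, *dod-3* ranked 25th and *tts-1* 38th. For *dod-6* the closest were *clc-24*, a claudin-like gene (0.69), *sod-3* (0.85), *H39E23.3* (0.85), *C08F11.3* (0.88) and *hsp-12.3* (0.88), against its own deviation of 2.16. Their allele differences without *daf-16* ran from -0.34 for *clc-24* to 0.41 for *H39E23.3*, none past the threshold. *C08F11.3* had means of 5.19 and 5.29 without *daf-16*, inside the background range.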

How the data were processed

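The log2 values are those the authors deposited, per the labels made in Microarray Suite (MAS) 5.0 and by Robust Multi-chip Average (RMA) over all 20 arrays together, with version 1.4.14 of the Affymetrix package for R. The log2 scale was read from the range of the values. RMA as usually run equalises the arrays, so a change in total RNA would not be seen. The table held 22625 probe sets. The 77 Affymetrix controls were left out and 22548 were tested. Probe sets were named from the platform annotation (20766 with 1 symbol, 887 with several, 895 with none), and sequence names, chromosomes and gene order from RefSeq genes on WBcel235. The array's genome build was not stated, and no coordinates or sequences are printed.

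Groups came from the sample titles. One mean per genotype was fitted across all probe sets on 20 arrays with limma 3.58.1 in R 4.3.3, and p-values were 2-sided and Benjamini-Hochberg adjusted over all probe sets. The fit was tested on simulated data. For the 3 genes no test is read from the *daf-16* differences or from their difference between alleles. Tests between alleles without *daf-16* were named with earlier results known and are no independent evidence. Differences for *daf-16* are *daf-16*(mgdf50); *daf-2* minus *daf-2*, and for alleles e1370 minus m577. The 3 genes and all lists were chosen with earlier results of these data known. Named genes were the 3 genes, the targeted genes, the 4 largest changes per list and direction, the 5 nearest in pattern and the neighbours on the chromosome. *dod-18*, *dod-20* and the catalase genes were named after their values were seen. Figures were drawn with matplotlib 3.10.9. Same-numbered arrays of the 2 genotypes without *daf-16* had deviations from their genotype means that correlated from -0.34 to 0.16 over probe sets. By title number the correlations ran from -0.308 to 0.815 between the 2 e1370 strains and from -0.538 to 0.384 between the 2 m577 strains. These values are mixed, so the main fit did not take the numbers to pair arrays, and fits with replicate blocks were run beside it. Alternatives were other centring, cyclic loess, a filter on dim probe sets, a variance trend, array weights, only the genotypes compared, replicate blocks, RNA integrity or germ line covariates, 1 probe set per gene and leaving out each array.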

Additional observations from a re-analysis of the deposited data

Results flagged for a closer look

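In the e1370 strain without *daf-16*, array 2 stood apart in *dod-3*, at 9.27 against 7.36 to 7.61 on the other 4 arrays of its genotype. The gap was 0.873 of the range of the genotype, above Dixon's critical value of 0.71. This was 1 of 12 groups of 5 arrays checked for both ends, and chance marks about 1 in 20. Whether the array or the animals account for it was not tested.

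The *daf-16* difference of *dod-3* differed between the alleles by -2.74 ± 0.50 (SE). The test that marked it (limma adjusted p = 0.0282) uses the differences on which the gene was chosen, so it is no independent evidence. The threshold was missed in 11 of 20 fits that each left out 1 array and in 4 of 11 other settings. In each allele all 5 arrays without *daf-16* were below all 5 with it, as for 2.01% of all probe sets in e1370 and 3.38% in m577. Nothing is read from this either, for the same reason.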

How the results depend on the processing

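No difference of the 3 genes changed sign under any setting run. Over the other settings, 164 of 177 values stayed on their side of the threshold or within 1 SD. Between alleles without *daf-16*, *dod-3* passed with array quality weights (-2.39, limma adjusted p = 1.19e-05), with a replicate block by title number (-1.98, limma adjusted p = 0.0334) and with germ line covariates (-2.20). It did not pass when blocked by the number of the sample's second name (limma adjusted p = 0.0718) or in any of the others. With 1 array left out it ranged from -2.34 to -1.87, passing in 1 of 20. *tts-1* passed with array weights (-1.45, limma adjusted p = 0.0229). With *daf-16*, *dod-3* passed with germ line covariates (1.02), and the block by second name gave 0.23 for *dod-3*, 0.24 for *dod-6* and 0.24 for *tts-1*.

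The difference between alleles in the *daf-16* difference is a description, being built from the differences on which the genes were chosen. For *dod-3* it was smaller than the reported -2.74 with cyclic loess (-2.54), a replicate block by second name (-2.21) and the RNA integrity covariate (-2.56). It was -2.84 without the 3 arrays of low sperm gene level, a setting chosen after seeing the data, and ranged from -3.10 to -2.54 with 1 array left out. The title block left it at -2.74. For *tts-1* it was -1.99 with array weights. The *daf-16* difference in m577 was -2.37 for *dod-6* and -0.82 for *tts-1* with array weights, and for *dod-3* -0.46 with germ line covariates and -1.69 with the block by second name. The causes were not tested.

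Counts of called probe sets in m577 for *daf-16* ranged from 58 (RNA integrity covariate) to 6645 (array weights) against 404, in e1370 from 507 (only these genotypes) to 1458 against 987, between alleles with *daf-16* from 30 (block by second name) to 2611 against 297, without it from 0 (cyclic loess) to 99 (array weights) against 1, and for the difference between alleles from 6 to 1113 against 40. With 1 array left out these counts ranged from 257 to 527, 813 to 1245, 121 to 695, 0 to 5 and 24 to 71. Same-numbered arrays were not shown to be paired.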

Other observations

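The nearest genes with a probe set on either side of the 3 genes were read as well. Beside *dod-3*, the receptor-family genes *str-33* and *srg-57* had genotype means of 4.85 to 5.49, inside the background range. Beside *dod-6*, *epac-1* was also at background, while *T20G5.8* fell with loss of *daf-16* in e1370, to 7.88 in *daf-16*(mgdf50); *daf-2*(e1370) against 10.84 in *daf-2*(e1370) (-2.96 ± 0.50 SE, limma adjusted p = 0.000958). In m577 *T20G5.8* was at 8.32 in *daf-16*(mgdf50); *daf-2*(m577) and 8.27 in *daf-2*(m577) (limma adjusted p = 0.973), and the difference between alleles did not pass (-3.02 ± 0.71, limma adjusted p = 0.164). With *daf-16* present it was higher in *daf-2*(e1370) than in *daf-2*(m577) by 2.57 ± 0.50 (limma adjusted p = 0.0158). Its probe set is also of the _x_at kind, so signal shared with other transcripts was not tested. Beside *tts-1*, *F09E10.1* differed by 0.02 and 0.07 with loss of *daf-16* in e1370 and m577, and *F09E10.10* was at 4.95 to 5.56 in the 4 genotypes, inside the background range.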
